A study of Drosophila melanogaster with 3 samples.

Results

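The cuticle protein genes examined here were 110 protein-coding genes of *Drosophila melanogaster*, out of 13945 in the Ensembl annotation of dm6. They were chosen by symbol alone: Cpr followed by a digit (70 genes), Lcp followed by a further character (15 genes) or Twdl followed by a further character (25 genes). *Cpr* without a digit, which encodes a cytochrome reductase, and pseudogenes with such symbols were not members. Binding of Zen was measured by chromatin immunoprecipitation and sequencing in a transgenic line that stably expresses zen with GFP at its C terminus, using an antibody against GFP. The material was whole embryos of both sexes collected at 0 to 4 h, in 3 biological replicates that make up 1 group, so that each value mixes all tissues of the embryo. No library of another genotype, stage or antibody was analysed here. At every gene below, Zen binding was therefore not separated from open chromatin that is recovered regardless of the tagged protein, and that part was not tested.

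Insect cuticle is a layered extracellular matrix of chitin fibres and proteins that the epidermis secretes. Most Cpr and Lcp proteins carry the Rebers-Riddiford domain, which binds chitin, and the Lcp names go back to proteins abundant in larval cuticle. The Tweedle proteins encoded by the Twdl genes are a separate cuticle family, and a dominant mutation of *TwdlD* gives short, stout larvae and pupae. Embryonic epidermis lays down cuticle late in embryogenesis, well after the collected window. Zen is a homeodomain transcription factor of the dorsal side of the early embryo, where it is needed for the amnioserosa, an extraembryonic epithelium.

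Few cuticle protein genes had a reproducible Zen-GFP summit, and none had one at its promoter. A summit is the position of highest signal in a peak. The IDR set, holds the peaks that the authors kept by the irreproducible discovery rate. A territory is the gene body with 2 kb on each side. An IDR summit lay in the territory of 14 of the 110 cuticle protein genes (12.7%), against 46.8% of all protein-coding genes. The summit was nearer to the gene's own start than to the start of any other protein-coding gene for 5 of the 110 (4.55%), against 28.2% of all genes. None of the 110 genes had an IDR summit within 500 bp of an annotated start, against 29.3% of all genes. These counts describe 1 group and carry no test.

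The libraries taken one by one also gave low counts. The strongest summits of each library were taken up to the number of summits in the IDR set, and are called its top summits below. Among them, 13 cuticle genes had a summit in replicate 1, 10 in replicate 2 and 20 in replicate 3 (mean 14.3 ± 5.13, SD, n = 3). All protein-coding genes reached 45.4% in replicate 1, 44.8% in replicate 2 and 48.3% in replicate 3. By nearest own start, 4, 3 and 7 cuticle genes remained in replicates 1, 2 and 3, against 27.4%, 26.9% and 29.0% of all genes. Replicate 3 stood highest on both counts. When replicate 1 was left out and only summits shared by the other two libraries within 100 bp were kept, 5 cuticle genes had a summit in the territory, against 36.9% of all genes, and 2 had one nearest their own start, against 21.0%. Without replicate 3, 3 cuticle genes had a summit nearest their own start, against 21.4% of all genes.

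**Figure D1:**
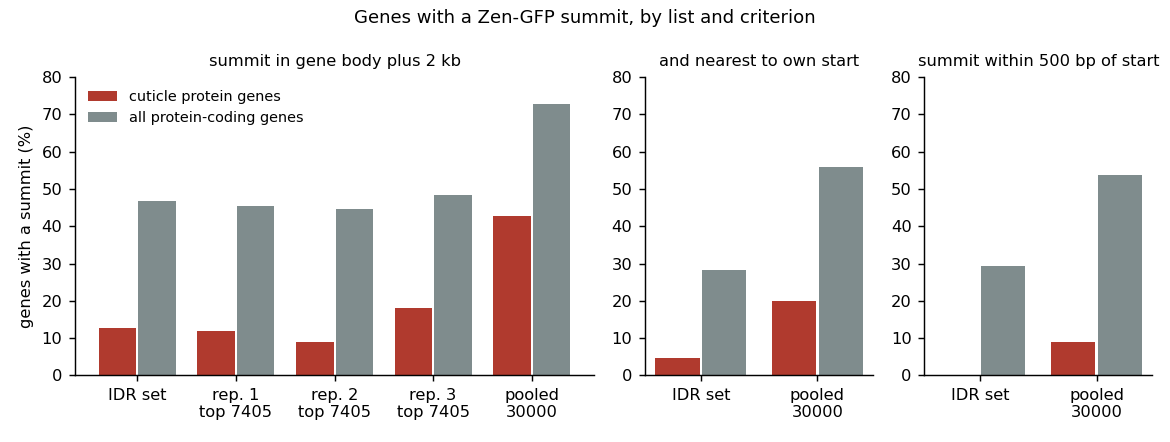
Share of genes with a Zen-GFP summit (%), for the 110 cuticle protein genes and for all 13945 protein-coding genes, by peak list and by criterion. There are no error bars because each bar is 1 list; the cuticle bars are lower in every panel, and the bar for IDR summits within 500 bp of a start is at 0.

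The longer lists gave higher counts for cuticle genes and for all genes. Among the 30000 summits called on the pooled libraries, 47 cuticle genes (42.7%) had at least 1 summit in the territory, against 72.9% of all genes. For 22 of the 110 a summit was nearest the gene's own start, against 55.9%, and 10 (9.09%) had a summit within 500 bp of a start, against 53.8%. The 70 pooled summits in cuticle territories had a median rank of 15718, where rank 1 is the strongest signal value in the list. Of the full library lists, replicate 1 placed a summit at 47 cuticle genes, replicate 2 at 37 and replicate 3 at 54, against 72.3%, 72.8% and 76.4% of all genes. In the pooled list and all library lists together, 46 of the 110 cuticle genes had no summit at all, against 18.6% of all genes.

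The starts of cuticle genes lay far from reproducible summits. The median distance from a cuticle gene's start to the nearest IDR summit was 13684.5 bp, against 3963 bp over all protein-coding genes. The distances ran from 617 bp at *Lcp9* to 73064 bp at *TwdlD*. A start lay over 10 kb from any IDR summit at 71 cuticle genes (64.5%), against 30.3% of all genes. Measured to the top summits of each library, the medians for cuticle genes were 15219 bp in replicate 1, 16066 bp in replicate 2 and 12778.5 bp in replicate 3. The medians for all genes were 4250, 4386 and 3630 bp in the same libraries, so every library showed a longer median distance for cuticle genes.

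**Figure D2:**
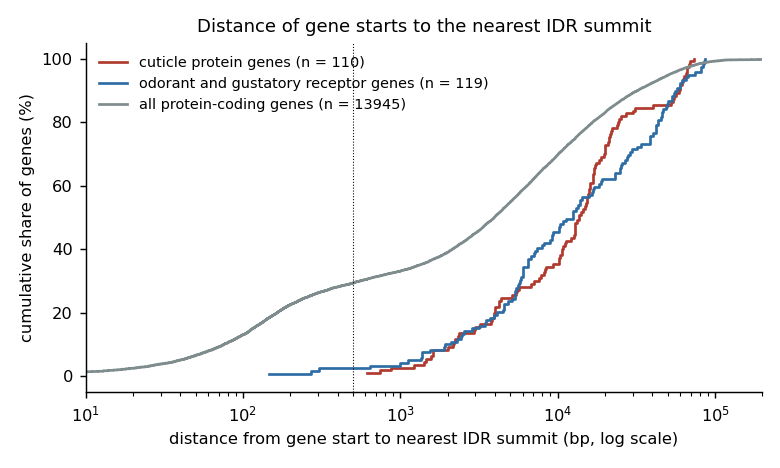
Cumulative share of genes (%) against the distance from the gene's start to the nearest IDR summit (bp, log scale), for cuticle protein genes, odorant and gustatory receptor genes and all protein-coding genes; the dotted line stands at 500 bp. The cuticle curve begins at 617 bp and lies below that of all genes up to about the longest distances, and its median is 13684.5 bp.

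Cuticle genes are short, and a short gene has a smaller territory. Their bodies had a median length of 1009.5 bp, from 413 bp at *Lcp65Ab1* to 18590 bp at *Cpr73D*, against a median of 2166 bp over all genes. Their coding sequences had a median length of 579 bp, 64 of the genes had 1 intron, 18 had none, and 100 had a single annotated start. Among genes with a body of at most 2 kb, 10 of 91 cuticle genes (11.0%) had an IDR summit in the territory, against 35.5% of all such genes. Cuticle genes also tend to neighbour one another. Where the body was at most 2 kb and no gene outside the cuticle list started in the territory, 5 of 61 cuticle genes (8.2%) had a summit, against 16.5% of the 1593 genes so chosen from all genes. The gap between the shares was smaller in this last set, and the part of gene length and of neighbouring starts in it was not tested further.

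Chemosensory and channel gene families, also made mostly of short genes, had low shares too. An IDR summit lay in the territory of 12.7% of cuticle genes, of 16 of 119 odorant and gustatory receptor genes (13.4%), and of 28 of 140 ionotropic receptor, odorant-binding protein and pickpocket channel genes. Own-start summits marked 5 cuticle genes (4.55%), 6 odorant and gustatory receptor genes (5.04%) and 8 genes of the second group (5.71%). Within 500 bp of a start, an IDR summit was present at 0 cuticle genes, 3 odorant and gustatory receptor genes (2.52%) and 3 genes of the second group (2.14%). The share of all genes by this count was 29.3%. The median distances from start to IDR summit were 13684.5, 12459 and 9756.5 bp in the same order. Few summits near the start and long distances were thus not particular to cuticle genes. In the pooled list the shares were 42.7% for cuticle genes, 37.0% for odorant and gustatory receptors and 47.9% for the second group, against 72.9% of all genes. A share below that of all genes was measured in each of these 3 sets, and the differences between them were not tested.

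Most of the cuticle genes with an IDR summit were Cpr genes, which are also the largest group. An IDR summit lay in the territory of 11 of 70 Cpr genes (15.7%), 2 of 15 Lcp genes (13.3%) and 1 of 25 Twdl genes (4.0%). Over all protein-coding genes the share was 46.8%. All 5 genes with a summit nearest their own start were Cpr genes, 7.14% of that group, against 28.2% of all genes. In the pooled list, 38 Cpr genes (54.3%), 2 Lcp genes (13.3%) and 7 Twdl genes (28.0%) had a summit, against 72.9% of all genes. The Twdl genes also had the longest median distance from start to IDR summit, 54403 bp, against 10963.5 bp for Cpr and 13631 bp for Lcp. Members of a cluster share their surroundings, so these genes are not independent of one another.

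The 14 genes shared 12 distinct IDR summits, because 2 of the summits fell in the territories of 2 adjacent cuticle genes each. These are 0.162% of the IDR set. Their ranks by signal value ran from 791 to 7274, with a median of 2830.5. Of the 12, 5 had a cuticle gene as the nearest start and 7 had another gene. Among the libraries' top summits, 7 of the 12 had a counterpart within 100 bp in all 3 libraries, against 57.7% of all IDR summits, and a further 2 had one in 2 libraries, against 28.9%.

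The strongest of the 12 summits had its nearest start at *Cpr76Ba*, a Rebers-Riddiford gene at the end of a run of 4 such genes. The peak covered chr3L:19516606-19516852 (dm6) in intergenic DNA, with its summit 836 bp beyond the 3′ end of the gene and 1616 bp from its start. It ranked 791 in the IDR set, and 1456, 959 and 463 in replicates 1, 2 and 3. The nearest start of a gene outside the cuticle list was that of *CG9452*, 12846 bp away. No other pooled summit lay in the run from *Cpr76Ba* to *Cpr76Bd*. That run thus held 1 summit in all, and all 3 libraries placed it among their top summits.

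*Cpr100A*, a Rebers-Riddiford gene that stands alone, had its IDR summit 1452 bp upstream of the start, in an intergenic peak at chr3R:30865907-30866234. It ranked 1332 in the IDR set, and 996, 666 and 3129 in replicates 1, 2 and 3. *CG15545* had the nearest start outside the list, at 6282 bp. *Cpr64Aa*, the first of a run of 4 Rebers-Riddiford genes, had a summit 747 bp upstream of its start at chr3L:4209822-4210010. This peak lies in an intron of *CG43367* and also within 2 kb of *Cpr64Ab*. It ranked 2914 in the IDR set, and 4610, 5576 and 1715 in replicates 1, 2 and 3. Replicate 3 gave the weakest of the 3 ranks at *Cpr100A* and the strongest at *Cpr64Aa*.

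*Cpr73D*, the longest gene of the list, had an IDR summit in its own intron at chr3L:16941323-16941738, 1418 bp from an internal annotated start. It ranked 6007 in the IDR set, and 6847, 19228 and 4121 in replicates 1, 2 and 3. Replicate 2 thus placed it far outside its top summits. When each gene was given only its outermost start, 4 cuticle genes in place of 5 had a summit nearest their own start, against 27.7% of all genes.

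The bases around these 4 summits are shown because they are the DNA on which the own-start calls rest: 60 bp on each side of the IDR summit, plus strand, none of it in an annotated exon, from the RefSeq Release 6 genome, whose arm lengths match dm6. Capitals mark GAGAG, the core of GAGA elements. None of these windows holds TAATTA, a homeodomain core site, CAGGTA, a site of the Zelda type, or TATAAA, the TATA box.
Cpr76Ba, chr3L:19516656-19516776: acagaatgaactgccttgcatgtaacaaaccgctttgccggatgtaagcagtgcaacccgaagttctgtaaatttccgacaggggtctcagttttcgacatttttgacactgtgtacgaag
Cpr100A, chr3R:30866009-30866129: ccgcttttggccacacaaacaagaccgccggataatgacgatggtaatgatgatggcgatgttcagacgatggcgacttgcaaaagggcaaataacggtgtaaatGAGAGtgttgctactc
Cpr64Aa, chr3L:4209865-4209985: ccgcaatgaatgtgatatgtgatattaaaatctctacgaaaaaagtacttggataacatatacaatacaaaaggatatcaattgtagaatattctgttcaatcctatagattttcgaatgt
Cpr73D, chr3L:16941471-16941591: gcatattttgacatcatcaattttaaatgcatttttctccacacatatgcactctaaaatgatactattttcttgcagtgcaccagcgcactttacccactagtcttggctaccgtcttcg
The window at *Cpr64Aa* was the richest in A and T, with 28.1% G and C, against 45.5% at *Cpr76Ba*, 47.9% at *Cpr100A* and 38.8% at *Cpr73D*.

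Motif counts around the 12 summits were close to those around IDR summits in general, on a small number. Each motif was searched on both strands within 100 bp of the summit, and none of the 4 motifs contains another. TAATTA lay near 2 of the 12 summits (16.7%), against 18.6% of all IDR summits. CAGGTA lay near 1 (8.33%), against 10.2%. TATAAA lay near 2 (16.7%), against 27.5%, and GAGAG lay near 2 (16.7%), against 23.8%. A match is a string of letters and not a measured site.

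The fifth summit nearest a cuticle start lay in an intron of *Cpr49Ae*, a Rebers-Riddiford gene of arm 2R, at chr2R:12403568-12403983 and 1560 bp from the start. It ranked 6893 in the IDR set, and 7896, 8433 and 6936 in replicates 1, 2 and 3. It was close to the end of the IDR set, and only replicate 3 placed it among its top summits. *CG30050*, 5178 bp away, had the nearest start outside the list.

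The other 7 summits lay in cuticle territories but nearer to another gene's start. The peak downstream of *Cpr66D* at chr3L:8644247-8644583 ranked 1683, and 880, 1550 and 4728 in replicates 1, 2 and 3. Its summit was 2439 bp from the start of *CG13305*, against 3944 bp from that of *Cpr66D*. The summit upstream of *Cpr60D* ranked 1744, and 1053, 2552 and 2782 in the libraries, and it fell in a coding exon of *CG30161*, 92 bp from that gene's start. Both peaks were therefore reproducible but stood closer to a neighbour.

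A peak at chr3L:6129725-6129828, beside *Lcp65Ag3* and *Cpr65Au*, ranked 2705 in the IDR set, with ranks of 1666 in replicate 1 and 5414 in replicate 3 and no counterpart in replicate 2. Its summit was 957 bp from the start of *l(3)mbn* and 1225 bp from that of *Lcp65Ag3*. The summit 1990 bp beyond *Cpr66Cb* ranked 2747, and 2805, 2833 and 2902 in replicates 1, 2 and 3. It lay in an intron of *Prim1*, a DNA primase subunit gene, 200 bp from the start of *CG7083*. The 3 libraries differed least at this summit.

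Downstream of *Cpr31A*, a summit in an intron of *Pen*, which encodes an importin alpha, ranked 3218, and 4900, 5234 and 2044 in replicates 1, 2 and 3; it was 525 bp from the *Pen* start. The only Twdl gene with an IDR summit was *TwdlE*. That summit ranked 5766, and 9902, 7589 and 3801 in the libraries, and lay 487 bp from the start of *lectin-28C*, a C-type lectin gene, against 4249 bp from that of *TwdlE*. The summit nearest to any cuticle start, 617 bp from that of *Lcp9*, ranked 7274 and lay 90 bp from the start of *egg*, a histone methyltransferase gene. It ranked 7481 and 9474 in replicates 1 and 2, and the closest summit of replicate 3 was 119 bp away. These last 2 summits were weak in the IDR set and among the top summits of at most 1 library.

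**Figure D3:**
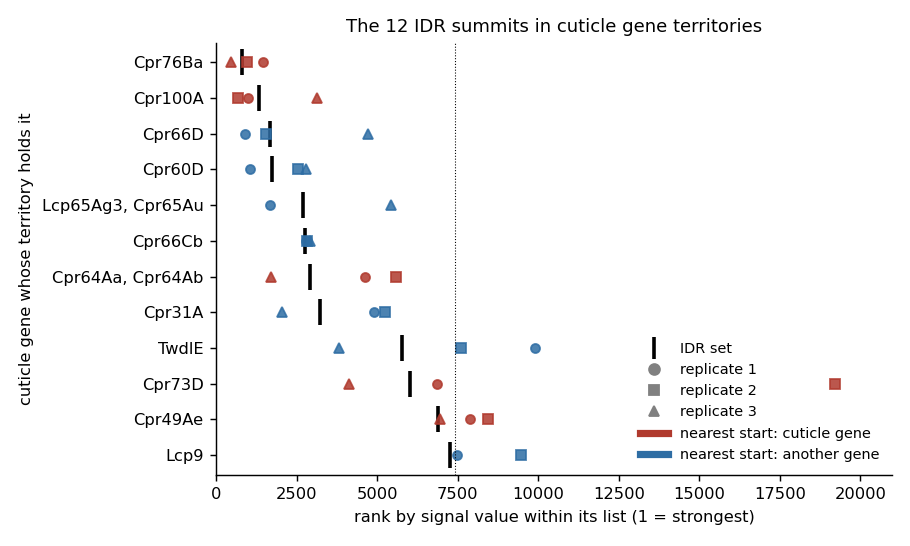
Rank by signal value (1 is the strongest) of each of the 12 IDR summits in cuticle territories, in the IDR set (black bar) and, as symbols, at its counterpart within 100 bp in the list of 30000 summits of each replicate; red symbols have a cuticle gene as the nearest start and blue symbols another gene, and the dotted line is the rank of the last summit of the IDR set. *Cpr76Ba* and *Cpr100A* stand at the top with ranks of 791 and 1332, and a missing symbol means no counterpart in that library.

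Across libraries, 8 of the 110 cuticle genes had a top summit in the territory in all 3, against 37.7% of all genes: *Cpr76Ba*, *Cpr100A*, *Cpr64Aa*, *Cpr64Ab*, *Cpr31A*, *Cpr60D*, *Cpr66D* and *Cpr73D*. In replicate 2, *Cpr73D* qualified through summits at 16955364 and 16955637 on 3L, near the start of *Ogdh*, a mitochondrial dehydrogenase gene, and not through the intronic summit of the other libraries. At least 1 library marked 23 cuticle genes, against 54.8% of all genes, and 12 were marked by 2 or more, against 45.9%. Replicate 3 alone marked 10 of the 110, here a larger share than the 4.80% of all genes. Some of these 10 shared a summit: *Cpr72Ea*, *Cpr72Eb* and *Cpr72Ec* had 1 of rank 5906, and *Cpr65Ea* and *Cpr65Eb* had 1 of rank 6861. *Cpr57A* was also marked in replicate 3 alone, by a summit of rank 2173 at the edge of its territory and 16 bp from the starts of *CG13430* and *BORCS7*. Its counterparts in replicates 1 and 2, at ranks 2264 and 2029, fell just outside the territory. The same held at *Cpr66Cb*, where the counterparts of the IDR summit in replicates 2 and 3, at ranks 2833 and 2902, fell just outside. Replicate 2 marked *Cpr66Cb* by another summit, of rank 5328 and 10 bp from the start of *Pex2*, and replicate 3 did not mark it.

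Among cuticle genes with no IDR summit, the 3 strongest pooled summits lay in territories of *Cpr78Cc*, the *Cpr72E* genes and *Cpr47Eg*, and 2 of them were at the start of another gene. The summit in the territory of *Cpr78Cc* ranked 7930 in the pooled list and lay 20 bp from the start of *CG43702*. Its counterparts within 100 bp ranked 13346, 4358 and 17560 in replicates 1, 2 and 3, and replicate 1 also had a summit of rank 6754 in the territory, 56 bp from the *CG43702* start. A summit of rank 8550, shared by the territories of *Cpr72Ea*, *Cpr72Eb* and *Cpr72Ec*, lay 464 bp from the start of *Cpr72Eb* itself. The summit near *Cpr47Eg* ranked 9348 and lay 9 bp from the start of *CG9067*. Of the 70 pooled summits in cuticle territories, 33 had a cuticle gene as the nearest start and 37 another gene. A counterpart in all 3 library lists was present for 10 of the 33 and for 14 of the 37.

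The number of pooled summits per gene was highest at *Cpr73D*, which held 7 along its long body, and at *Cpr35B*, which held 5 although its body is 875 bp. The strongest of *Cpr35B* ranked 13019 in the pooled list, outside the IDR set, and 13731, 20203 and 23989 in replicates 1, 2 and 3. *Cpr64Aa*, *Cpr100A*, *Cpr66Cb* and *Cpr31A* held 4 each. A pooled summit within 500 bp of the start was present at 10 genes: *Cpr31A*, *Cpr35B*, *Cpr47Ed*, *Cpr49Ab*, *Cpr65Ec*, *Cpr72Eb*, *Cpr73D*, *Cpr100A*, *Cpr12A* and *TwdlH*. The shortest distance was 37 bp, at *Cpr47Ed*, whose strongest summit ranked 19207.

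Most cuticle genes sit in clusters, and reproducible summits were sparse there. Runs of 3 or more cuticle genes with gaps of at most 10 kb held 78 of the 110 genes in 15 clusters. With 2 kb on each side, the clusters together covered 272 kb and held 5 IDR summits, or 1.84 per 100 kb. The whole arms that carry clusters had 4.72 to 5.89 per 100 kb. Short clusters with 1 IDR summit stood above their own arm: *Cpr65Ea* to *Cpr65Ec* (8.45), *Cpr64Aa* to *Cpr64Ad* (7.95) and *Cpr49Ae* to *Cpr49Ah* (5.9). All other clusters stood below their arm. Pooled summits numbered 34, or 12.5 per 100 kb, against 20.1 to 23.1 over the same arms. An IDR summit lay in the territory of 6 of the 78 clustered genes (7.69%) and of 8 of the 32 genes outside clusters. The share of all protein-coding genes was 46.8%. By nearest own start, 3 of the 78 clustered genes and 2 of the 32 others remained. The median number of genes outside the cuticle list that start in the territory was 0 for clustered genes and 1 for the others. In the pooled list, 41.0% of clustered and 46.9% of other cuticle genes had a summit in the territory. The difference between clustered and other cuticle genes was not tested, nor was the part of neighbouring starts in it.

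The largest cluster runs over 17 genes from *Lcp65Ag3* to *Cpr65Az* on 3L (6130386 to 6161589). Its 1 IDR summit lay beyond the first gene, and the next IDR summit on the other side was 44272 bp away. The 12 Tweedle genes from *TwdlM* to *TwdlD* on 3R (26619118 to 26641054) held no IDR summit and stood in a stretch of 147429 bp without one. That cluster had 3 pooled summits, the strongest at rank 15696 near *TwdlN*. The 7 genes from *Cpr47Ea* to *Cpr47Eg* held no IDR summit and 6 pooled summits. *Lcp1* to *Lcp4*, 4 larval cuticle genes, had no summit in any of the lists and stood in the longest such stretch, 179184 bp without an IDR summit. *Cpr62Ba* to *Cpr62Bc* had none in any list either.

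A summit inside a cluster can lie outside every cuticle territory. Between *Cpr65Eb* and *Cpr65Ec* an IDR summit at 7090971 on 3L lay over 2 kb from each gene body. Its nearest start was that of *Cpr65Eb*, 2184 bp away. This summit ranked 5497 in the IDR set, and 7261, 7654 and 3952 in replicates 1, 2 and 3. It is not among the 12 summits above, since it was outside all territories. With the flank widened to 5000 bp, 29 cuticle genes had an IDR summit in the territory, against 60.7% of all genes.

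**Figure D4:**
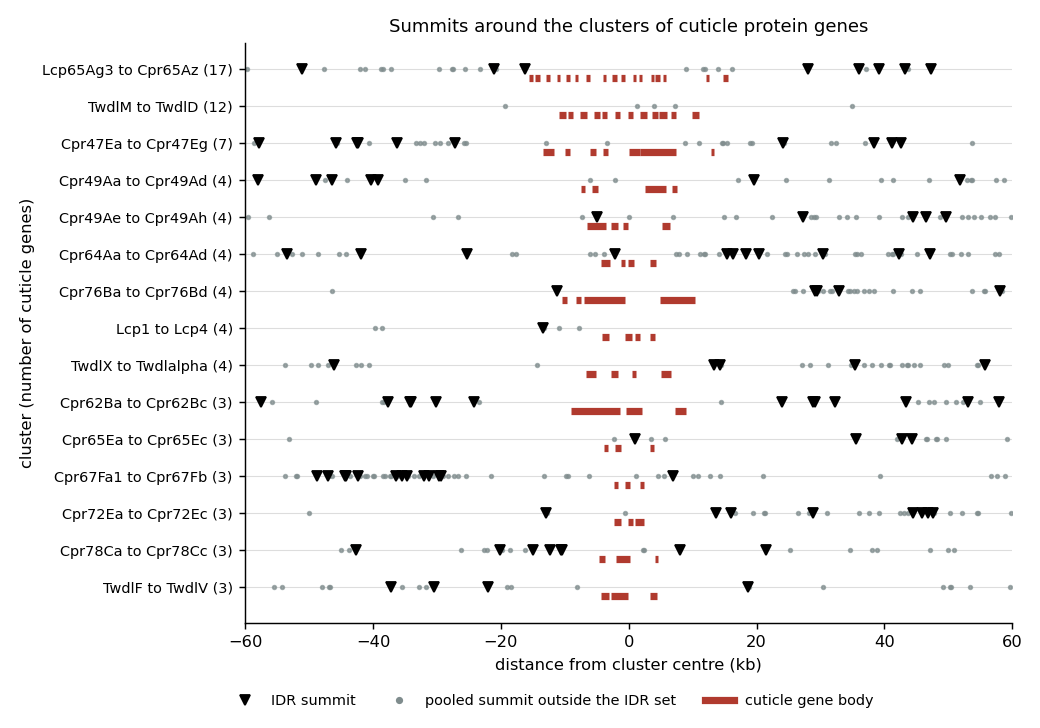
Positions of IDR summits (black triangles) and of pooled summits outside the IDR set (grey points) within 60 kb of the centre of each of the 15 clusters (kb), with cuticle gene bodies in red. The row from *TwdlM* to *TwdlD* has no triangle in the plotted range, and the row from *Lcp1* to *Lcp4* has neither symbol over its genes.

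Some cuticle genes are near-identical copies, and how the authors placed reads that match several copies is not given in the sources used here. The share of 50-base words in a territory that occur more than once in the genome had a median of 0.0% over cuticle genes. It exceeded 10% at 12 genes, with the highest values at *Cpr65Ax1* (61.4%), *Lcp65Ab1* (58.5%), *Lcp65Ab2* (44.8%) and *Cpr65Ax2* (43.0%). Of those 12 genes, 2 had an IDR summit and 2 a pooled one, against 46.8% and 72.9% of all protein-coding genes. The shares among all genes with over 10% repeated words were not counted separately. Of the 98 other cuticle genes, 12 (12.2%) had an IDR summit, against 48.1% of all protein-coding genes with at most 10% repeated words. At *Cpr73D* 40.2% of the words were repeated, but none within 100 bp of its IDR summit, nor at the other 11 summits.

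Just over 1 in 2 cuticle promoters held a TATA box, a feature that the choice of genes did not use. TATAAA on the sense strand, beginning 40 to 20 bp before the start, was present at 60 of 110 cuticle genes (54.5%), against 7.79% of all protein-coding genes. By group it was present at 48.6% of Cpr, 73.3% of Lcp genes and at 15 of the 25 Twdl genes. Among genes with a body of at most 2 kb the shares were 58.2% and 11.7%. The box began at a median of 28 bp before the start. Anywhere from 250 bp before to 50 bp after the start, on either strand, TATAAA was found at 73.6% of cuticle genes, against 45.8% of all genes. TAATTA was found at 16.4%, against 20.4%, CAGGTA at 4.55%, against 6.24%, and GAGAG at 30.9%, against 29.7%. Cuticle promoters were richer in G and C, with a median of 43.7%, against 38%.

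**Figure D5:**
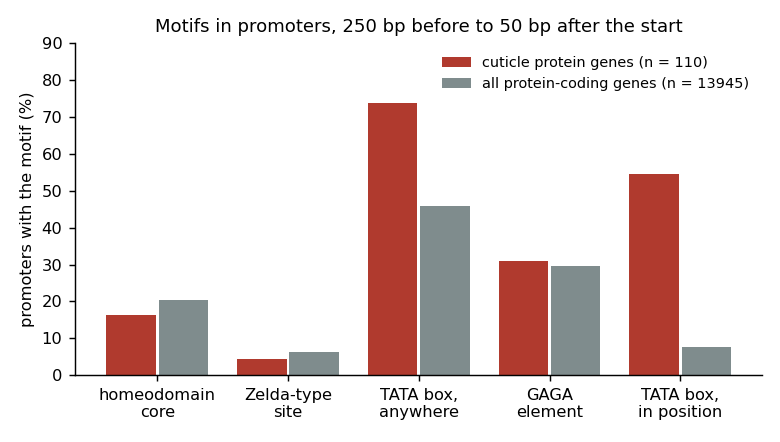
Share of promoters (%) that hold each motif, from 250 bp before to 50 bp after the start on either strand, and, in the last pair of bars, a TATA box on the sense strand beginning 40 to 20 bp before the start. Cuticle genes reach 54.5% in the last pair, against 7.79% of all protein-coding genes, while the homeodomain core and the Zelda-type site are at similar shares in both groups.

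Core promoters of 8 cuticle genes are shown from 50 bp before to 10 bp after the start, sense strand, to let the box be seen at its place in each subfamily. The box is in capitals. *Cpr73D* stands for the 50 cuticle genes without it. *Cpr76Ba*, *Cpr100A* and *Cpr64Aa* have an own-start summit elsewhere in the territory, *Lcp65Aa* and *TwdlD* have no IDR summit, and *TwdlE* and *Cpr31A* have one at a neighbour.
Cpr76Ba, chr3L:19518323-19518382, minus: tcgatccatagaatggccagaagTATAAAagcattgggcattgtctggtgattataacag
Cpr100A, chr3R:30867471-30867530, plus: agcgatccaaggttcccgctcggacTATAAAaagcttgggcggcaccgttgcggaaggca
Cpr64Aa, chr3L:4209169-4209228, minus: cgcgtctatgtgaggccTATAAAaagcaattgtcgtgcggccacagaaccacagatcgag
Cpr73D, chr3L:16957680-16957739, minus: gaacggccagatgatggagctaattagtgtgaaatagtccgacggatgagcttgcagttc
Cpr31A, chr2L:10054163-10054222, plus: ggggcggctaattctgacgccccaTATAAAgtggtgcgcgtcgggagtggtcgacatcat
Lcp65Aa, chr3L:6151254-6151313, plus: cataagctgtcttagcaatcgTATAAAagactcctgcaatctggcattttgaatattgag
TwdlD, chr3R:26639975-26640034, plus: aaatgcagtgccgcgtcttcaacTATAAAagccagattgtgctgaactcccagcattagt
TwdlE, chr2L:7860830-7860889, minus: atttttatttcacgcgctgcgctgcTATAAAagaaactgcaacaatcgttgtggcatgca
In the 7 sequences with the box it begins between 33 bp (*Cpr64Aa*) and 25 bp (*Cpr100A* and *TwdlE*) before the start.

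Across the genome, genes with such a box seldom had an IDR summit close to a start. Of the 1087 protein-coding genes with the box, 9.48% had an IDR summit within 500 bp of a start, against 29.3% of all genes. No cuticle gene had one, so the count was 0 both for the 60 with the box and for the 50 without it. Within the cuticle genes this count therefore cannot bear on the box. Of genes with an IDR summit within 500 bp of any annotated start, 2.52% held the box, against 9.98% of genes without one. The box was searched only at the outermost start, so the summit can lie at another start of the gene. Within the cuticle genes, 8 of 60 with the box (13.3%) and 6 of 50 without it had an IDR summit in the territory. The share was 23.4% of the 1027 genes outside the cuticle list with the box, and 46.8% of all protein-coding genes. A summit nearest the own start was present at 4 of the 60 (6.67%) and at 1 of the 50, against 28.2% of all genes. Pooled summits marked 43.3% of cuticle genes with the box and 42% of those without, against 72.9% of all genes. None of these differences was tested.

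Other genes of cuticle formation were counted in lists by role, beside the 46.8% of all protein-coding genes with an IDR summit in the territory; differences between the lists were not tested. Of 19 other structural cuticle proteins, such as the *Ccp84A* and *Edg* genes, 1 (5.26%) had an IDR summit in the territory: *Crys*, a protein of the corneal lens, at rank 5147. Of 14 genes of chitin synthesis and modification, 6 (42.9%) had one, close to the share of all genes, and 3 of the 6 had a summit nearest their own start. The strongest were at *Cht7*, a chitinase (rank 3125), *Cda5*, a chitin deacetylase (3459), *kkv*, the epidermal chitin synthase (4139), and *Chs2*, the other chitin synthase (4251). The summits of *Cda5* and *kkv* were nearer to another gene's start. Of 6 enzymes of hardening and pigmentation, only *t*, which encodes the pigment enzyme Tan, had one, at rank 6638.

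Of 9 regulators of cuticle genes, 7 (77.8%) had an IDR summit in the territory, against 46.8% of all protein-coding genes and 67.6% of those with a body over 10 kb. The strongest were at *Hr3*, a nuclear receptor gene of the ecdysone response (rank 214), and *grh*, the epidermal factor Grainyhead (272). *EcR*, the ecdysone receptor gene, followed at 1830 and *ftz-f1*, another nuclear receptor gene, at 1881. Of 8 genes of the apical extracellular matrix, 5 (62.5%) had one, against the same 46.8% and 67.6%. The strongest were at the zona pellucida domain genes *nyo* (687), *pio* (1987), *dpy* (2771) and *dyl* (2842). The summit of *dyl* was nearer to another gene's start. Only 1 of the 5 summits of *pio* and 1 of the 4 of *dpy* were nearest their own start. Gene length moved with the counts by list: the median body was 33354 bp for the regulators, 15927 bp for the matrix genes and 976 bp for the other structural proteins. Its part in the counts was not tested.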

How the data were processed

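Chromatin of zen-GFP embryos was sonicated to 200 to 800 bp and sequenced in 3 libraries, per the labels. The authors deposited peaks on dm6 for each library, for the pooled libraries and as an IDR set. No source used here names the aligner or the peak caller. The deposited signal value of each peak is the authors' score and was used only for ranks within a list. The deposited −log10 q-value was not used. Read counts are not part of the lists, and library depth is therefore unknown.

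Summits on 6 arms were assigned to genes of Ensembl release 115, with every annotated transcript start. The IDR set held the strongest pooled rows, and as many rows were taken from the top of each library list. The rule was tested on simulated data, with 0 wrong assignments. Python 3.11.15, numpy 2.4.6, pandas 2.3.3 and matplotlib 3.10.9 were used. With 1 group, no test was made; counts stand beside those of all protein-coding genes. Because the sample is the whole organism, no cell type markers were checked. The genes and lists were chosen with earlier results of these data known. Named genes are those with an IDR summit, with a top summit in all 3 libraries, with the strongest further pooled summits, in the largest clusters, with the most or fewest pooled summits, and up to 4 per list of related genes. *Cpr65Eb*, *Cpr57A* and the genes named for distance, length, repeated words, summits within 500 bp of a start or core promoters were named after their values were seen. *AANAT1* was not matched. Repeated 50-base words in the genome were used in place of a planned comparison of protein sequences, which was not made. The set of genes with a body over 10 kb was added after the counts were known.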

Additional observations from a re-analysis of the deposited data

How the results depend on the processing

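Each alternative kept the share of cuticle genes below that of all protein-coding genes for summits in the territory, nearest the own start and near a start. Genes with an IDR summit in the territory numbered 14 in the IDR set. They numbered 27 among the strongest pooled summits taken to 2 times the size of the IDR set (all genes 62.4%). Among all pooled summits there were 47 (all genes 72.9%). With flanks of 0, 1000 and 5000 bp there were 2, 9 and 29 (all genes 14.7%, 40.3% and 60.7%). Leaving out 1 replicate gave 5 to 10 (all genes 36.9% to 38.6%), the lowest without replicate 1. Genes with a summit nearest their own start numbered 5 in the IDR set and 3 in its stronger 0.5 (all genes 15.8%). They numbered 10 in the doubled set (all genes 42.3%) and 22 among all pooled summits (55.9%). They numbered 3 in replicate 2 alone (all genes 26.9%) and 2 to 4 when 1 replicate was left out (21.0% to 22.2%). Genes with a summit within 500 bp of a start numbered 0 in the IDR set and 1 in the doubled set (all genes 43.4%). They numbered 10 among all pooled summits (all genes 53.8%) and 1 in replicate 3 alone (29.6%). There were 3 within 1000 bp (all genes 33.1%), and 0 each time 1 replicate was left out (21.4% to 22.6%). The mean per library, 14.3 genes, was 46.0 with all 30000 rows, 6.0 with 0.5 times as many top rows and 11.5 to 16.5 when 1 replicate was left out. The remaining alternatives, the strongest summit per interval, starts of all annotated genes, 1 start per gene and 200 bp, moved no count by over 1.5 times. The cause of these shifts was not tested. No paired analysis was possible because all libraries belong to 1 group. Without read counts, a missing summit means none was called, not that no binding occurred.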
